A study of Mus musculus with 8 samples.

Results

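The 10 immediate early genes described here were Fos, Fosb, Jun, Atf3, Egr1, Egr2, Egr3, Nr4a1, Ier2 and Ier3, taken by gene symbol from the 54532 genes of a lung RNA-seq count table. All 10 were among the 17138 genes with enough counts to be tested. The lungs came from CC-LR mice, a model of K-ras mutant lung adenocarcinoma on a C57BL/6 background, in which Cre recombinase expressed from the club cell secretory protein (CCSP) locus switches on LSL-K-ras G12D in lung epithelial cells. Both groups carried this mutation. Control (4 mice) and TTI-101-treated lungs (4 mice) were taken at 14 weeks of age, the treated mice having received TTI-101, a small-molecule inhibitor of STAT3, over the last 4 weeks. The study gave TTI-101 by injection in one experiment and by gavage in another, and the labels do not say which mice were sequenced, nor what the controls received. RNA was from lung tissue and not from sorted tumor cells, with 1 library per mouse. Nothing in the labels says whether mice shared a litter or cage, so p-values measure only the spread between these samples.

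Immediate early genes are transcribed within minutes of a stimulus, without new protein synthesis, from promoters held ready by serum response factor with its ternary complex partners and by CREB. Growth factor signaling through Ras and ERK, calcium, stress and tissue handling all induce them, and their mRNAs are short-lived. Most of the products are transcription factors. FOS, FOSB, JUN and ATF3 form AP-1 and related dimers, the EGR proteins are zinc finger factors, NR4A1 is an orphan nuclear receptor, and IER2 and IER3 are small nuclear or stress response proteins.

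The counts per library summed to between 16075855 and 26873509, and the 10 genes took between 0.0534% and 0.131% of them. The smallest count of any of the 10 genes in a library was 59, for Egr3, and the largest was 8631, for Jun. Expression is given as CPM, counts divided by the TMM-scaled size of the library, and fold changes are those of edgeR, whose quasi-likelihood test was run on all genes with enough counts. Markers of lung epithelium were abundant, Sftpc of alveolar type 2 cells at a mean of 29922 CPM in control and 22755 CPM in TTI-101-treated lungs. Control mouse 4 stood apart from the other 7 mice, with 101 on the first principal component of log2 CPM against -39.3 to 17.9, and with 5.56% of its counts from mitochondrial genes against 2.01% to 2.85%. For this reason values without control mouse 4 are given below.

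To show what these genes share upstream of their starts, promoter windows of 250 bases were read from RefSeq (GRCm38.p6) for Fos, Fosb, Jun, Atf3, Egr2, Nr4a1 and Ier3. No window was read for Egr1, Egr3 and Ier2, and the motif counts below say nothing of these genes. The windows of Fos, Fosb, Nr4a1 and Egr2 are printed 5′ to 3′ on the strand of the gene because they hold the motifs that recur among the members. Capitals mark the short CRE motif, TGACG, that CREB and ATF proteins recognize (CGTCA on the other strand), the CArG box of serum response factor, and the EGR site, GCGGGGGCG (CGCCCCCGC on the other strand).
Fos, chr12:85473640-85473889, + strand: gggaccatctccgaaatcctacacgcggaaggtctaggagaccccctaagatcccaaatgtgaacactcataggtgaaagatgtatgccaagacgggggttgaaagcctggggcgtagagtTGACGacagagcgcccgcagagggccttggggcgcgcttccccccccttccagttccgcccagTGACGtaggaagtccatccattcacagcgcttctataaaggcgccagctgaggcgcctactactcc
Fosb, chr7:19310052-19310295, - strand: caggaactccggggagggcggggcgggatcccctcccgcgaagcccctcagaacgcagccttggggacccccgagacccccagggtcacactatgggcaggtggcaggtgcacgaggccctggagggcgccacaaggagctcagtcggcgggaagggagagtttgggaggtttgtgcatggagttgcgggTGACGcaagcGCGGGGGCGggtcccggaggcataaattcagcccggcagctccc
Nr4a1, chr15:101266596-101266845, + strand: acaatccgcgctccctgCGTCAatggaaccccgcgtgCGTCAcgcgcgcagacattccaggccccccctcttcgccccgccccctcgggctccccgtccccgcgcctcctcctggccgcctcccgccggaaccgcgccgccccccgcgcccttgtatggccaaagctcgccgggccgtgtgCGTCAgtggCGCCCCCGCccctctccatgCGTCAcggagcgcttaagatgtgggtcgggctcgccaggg
Egr2, chr10:67537619-67537868, + strand: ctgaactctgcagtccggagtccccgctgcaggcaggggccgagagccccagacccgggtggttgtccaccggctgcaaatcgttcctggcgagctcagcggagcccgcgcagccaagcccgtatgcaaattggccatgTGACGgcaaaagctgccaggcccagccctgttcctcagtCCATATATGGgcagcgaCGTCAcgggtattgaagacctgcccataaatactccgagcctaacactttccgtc
For Fosb, the last 6 bases of the window lay in an annotated exon and were left out. The Fos window overlapped no annotated gene. The Nr4a1 and Egr2 windows lay within the span of their own gene, before one of its later starts, and overlapped no exon. A short CRE motif occurred in a window of 5 of the 7 genes (Fos, Fosb, Atf3, Egr2 and Nr4a1) against 17.8% of all 32851 RefSeq windows. The Atf3 motif began 7 bases before the start, in bases annotated as exon. The genes were counted over any of their windows and the share over single windows, which favors a gene with several, such as Egr2. Nr4a1 held 4 such motifs, beginning 233, 213, 69 and 40 bases before the start, Fos held 2, at 129 and 66 bases, and Fosb held 1, at 60 bases. The full CRE, TGACGTCA, was in 0 of the 7 genes and in 1.55% of windows. Within these 250 bases a CArG box was found for Egr2 alone among the 7 genes, 72 bases before the start, against 1.47% of windows. A motif farther upstream would not have been seen, so an absence here covers only the bases read. The EGR site was in 2 of the 7, Fosb at 50 bases and Nr4a1 at 60 bases, against 2.57% of windows, and in both genes it overlapped an SP1 box, GGGCGG, which all 7 genes and 32.7% of windows held. Several Egr2 windows overlap each other and were counted once per gene. These are letter matches on both strands and say nothing of occupancy.

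Levels can be compared between genes only per length. On the scale of CPM per kilobase of gene length as deposited, averaged over the 8 mice, Ier3 was at 104, Jun at 86.5, Ier2 at 53.8, Nr4a1 at 31.2, Fos at 29.5, Egr1 at 21.7, Atf3 at 7.30, Egr2 at 2.19, Fosb at 1.496 and Egr3 at 1.496. The mean ± SD ranges of Ier3 and Jun overlapped in both groups, at 86.8 ± 18.2 and 67.5 ± 12.1 CPM per kilobase in the controls and at 122 ± 34.9 and 106 ± 24.8 in the treated mice (SD, n = 4 each). The order of Nr4a1 and Fos turned with the group, with Nr4a1 at 20.2 ± 8.999 and Fos at 25.6 ± 4.57 CPM per kilobase in the controls and at 42.2 ± 13.9 and 33.3 ± 6.67 in the treated mice (SD, n = 4 each), so these neighbors did not differ beyond their spread. Fos and Egr1 also overlapped in both groups, and so did Fosb and Egr3. Jun overlapped Ier2 in the controls alone, and Ier2 overlapped Nr4a1, and Egr2 overlapped Fosb, in the treated mice alone. Egr1, Atf3 and Egr2 were separated from one another in both groups.

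No immediate early gene passed an adjusted p of 0.05 in the comparison of TTI-101-treated with control lungs. Among all genes, edgeR called 0% at that threshold, limma-voom 0% and DESeq2 0.0126%, and neither limma-voom nor DESeq2 called any of the 10. The log2 fold change was above 0 for 10 of the 10 genes, between 0.073 for Ier2 and 1.06 for Nr4a1, with a median of 0.52, where the median of all genes tested was 0.0034 and 50.6% of them were above 0. At an unadjusted p under 0.05, 4 of the 10 genes were higher in treated lungs (Nr4a1, Jun, Fosb and Ier3) and 0 were lower, against 3.02% of all genes higher and 6.61% in either direction. Without TTI-101-treated mouse 3 the count was 2 of 10 (Jun and Nr4a1), against 2.42% of genes in either direction, and without both that mouse and control mouse 4 it was 0 of 10, against 1.48%. All 4 treated mice lay above all 4 control mice for 0 of the 10 genes and for 1.53% of all genes. In bulk lung, more cells of a type that expresses a gene and more RNA per cell cannot be told apart.

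**Figure D1:**
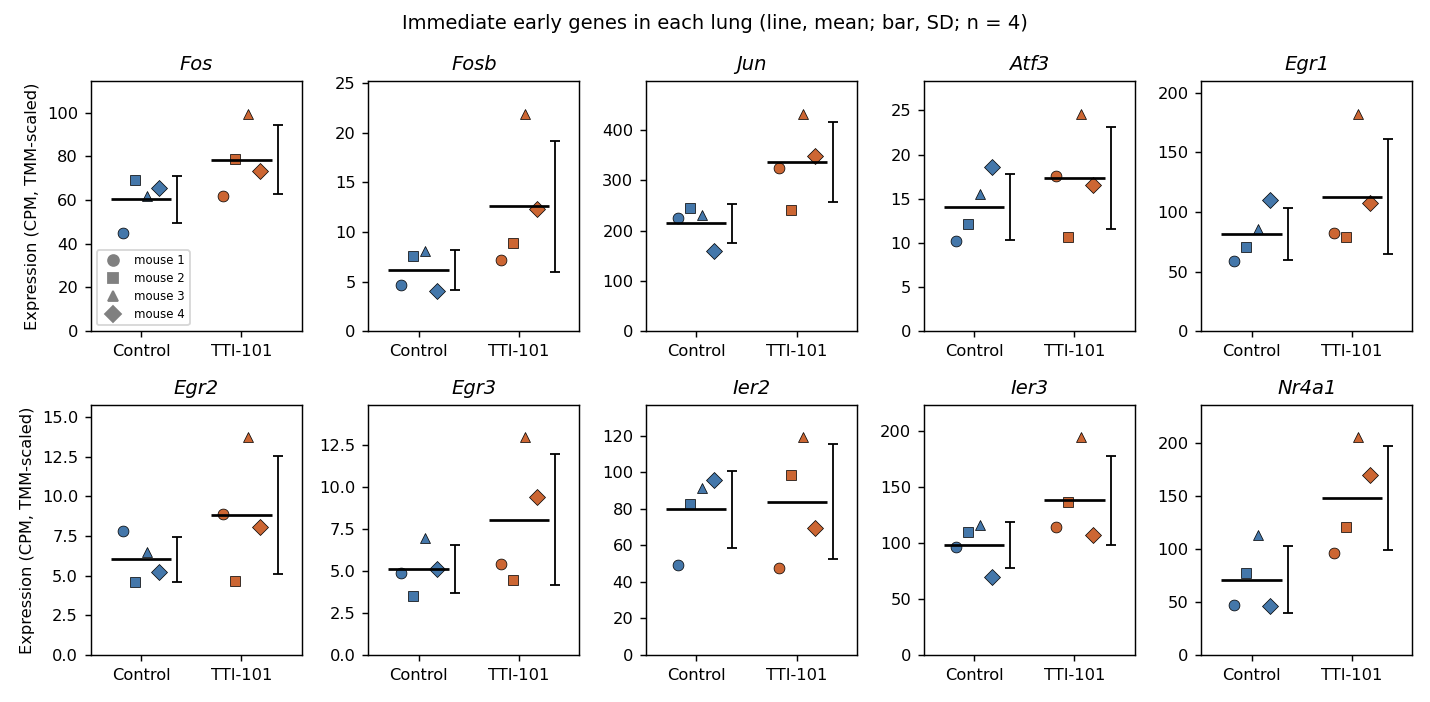
Expression of each immediate early gene in every mouse, in TMM-scaled CPM on a linear axis from 0. Each symbol is 1 mouse (the shape gives its number), the line is the group mean and the bar 1 SD (n = 4). TTI-101-treated mouse 3, the orange triangle, is the highest point in all 10 panels, and the groups overlap in each.

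Jun encodes the principal DNA-binding partner of the FOS proteins and, of the 4 AP-1 genes among the 10, had the highest level per length. Jun (ENSMUSG00000052684, chromosome 4, 95049034 to 95052222, GRCm38) was at 224, 246, 232 and 159 CPM in control mice 1 to 4 and at 325, 240.4, 433 and 348 CPM in TTI-101-treated mice 1 to 4. Treated mice 1, 3 and 4 lay above every control, while treated mouse 2 lay within the control range. The control mean of 215 ± 38.7 CPM and the treated mean of 337 ± 79.1 CPM (SD, n = 4 each) made a 1.56-fold difference (log2 fold change 0.65, standard error 0.21, edgeR unadjusted p = 0.0104, adjusted p = 0.657). A two-sided exact permutation test over the 70 assignments of the mice, whose smallest possible p is 0.0286, gave p = 0.0571. Jun lies on the strand opposite to Junos, which had between 138 and 355 counts per library, and as the strand setting of the counting is not given in the sources used here, reads of the pair could be mixed.

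Fos and Fosb encode paralogs that both pair with JUN. Fos (ENSMUSG00000021250, chromosome 12, 85473890 to 85477273) was at 44.8, 69.0, 61.9 and 65.5 CPM in control and at 62.0, 78.7, 99.5 and 73.5 CPM in treated mice 1 to 4. Again 3 treated mice were above every control, and treated mouse 1 was level with the controls. The difference was 1.301-fold (log2 fold change 0.38, 95% interval -0.028 to 0.79, edgeR unadjusted p = 0.0649). Fosb (ENSMUSG00000003545, chromosome 7, 19302696 to 19310051), far less abundant, was at 4.70, 7.59, 8.10 and 4.09 CPM in control and at 7.12, 8.89, 21.9 and 12.3 CPM in treated mice 1 to 4. Its means of 6.12 ± 2.02 CPM and 12.6 ± 6.59 CPM (SD, n = 4 each) differed 2.05-fold (log2 fold change 1.04, standard error 0.37, edgeR unadjusted p = 0.0189, adjusted p = 0.657; exact permutation p = 0.0857). The size rested in part on treated mouse 3, without which the log2 fold change was 0.63 (edgeR unadjusted p = 0.0828). Atf3 (ENSMUSG00000026628, chromosome 1, 191170296 to 191218039), a stress-induced factor that often represses its targets, was at 10.2 to 18.6 CPM in control and 10.6 to 24.6 CPM in treated lungs, with a log2 fold change of 0.30 (95% interval -0.31 to 0.91, edgeR unadjusted p = 0.295). Only treated mouse 3 exceeded the highest control for Atf3, and the log2 fold change was 0.086 without that mouse and 0.48 without control mouse 4, the highest control.

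The EGR factors bind GC-rich sites and are induced downstream of ERK. Egr1 (ENSMUSG00000038418, chromosome 18, 34859823 to 34864984), the most abundant of the family, was at 59.1, 70.8, 86.0 and 110.2 CPM in control and at 82.2, 79.2, 183 and 108 CPM in treated mice 1 to 4. Apart from treated mouse 3, the treated mice lay within the control range. Its log2 fold change was 0.47 (95% interval -0.16 to 1.10, edgeR unadjusted p = 0.128), 0.14 without treated mouse 3 and 0.66 without control mouse 4, the highest control, where the unadjusted p was 0.0430. Egr2 (ENSMUSG00000037868, chromosome 10, 67535475 to 67542188), a factor of myelination and of lymphocyte restraint, ranged from 4.603 to 7.81 CPM in control and from 4.68 to 13.7 CPM in treated lungs. Egr3 (ENSMUSG00000033730, chromosome 14, 70077203 to 70082614), its close relative, ranged from 3.53 to 6.99 CPM and from 4.44 to 13.0 CPM. With all mice the log2 fold changes were 0.55 (95% interval -0.16 to 1.26, edgeR unadjusted p = 0.117) for Egr2 and 0.65 (95% interval -0.15 to 1.45, edgeR unadjusted p = 0.101) for Egr3. Without treated mouse 3, the highest for both, the log2 fold changes were 0.26 for Egr2 (edgeR unadjusted p = 0.418) and 0.32 for Egr3 (edgeR unadjusted p = 0.373). Without treated mouse 2, the lowest treated mouse for both, they were 0.76 (edgeR unadjusted p = 0.0192) and 0.86 (edgeR unadjusted p = 0.0290), in a fit in which 14.2% of all genes passed 0.05.

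Nr4a1 (ENSMUSG00000023034, chromosome 15, 101254269 to 101274795), the nuclear receptor also known as Nur77, had the largest difference of the 10. It was at 47.6, 77.2, 113 and 45.8 CPM in control and at 96.5, 121, 205 and 169.9 CPM in treated mice 1 to 4. Treated mice 2, 3 and 4 were above every control, and treated mouse 1 was above all controls but mouse 3. The means of 70.9 ± 31.6 CPM and 148 ± 48.9 CPM (SD, n = 4 each) differed 2.09-fold (log2 fold change 1.06, standard error 0.32, edgeR unadjusted p = 0.00774, adjusted p = 0.657; exact permutation p = 0.0571). With any 1 mouse left out the log2 fold change stayed between 0.86 and 1.38 and the unadjusted p was at most 0.0288. With both control mouse 4 and treated mouse 3 left out it was 0.70 (edgeR unadjusted p = 0.0588).

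Ier3 and Ier2 were named for their early induction and encode unrelated proteins. Ier3 (ENSMUSG00000003541, chromosome 17, 35821684 to 35822923), which modulates ERK signaling and cell survival, was at 96.0, 110.1, 116 and 70.04 CPM in control and at 114, 136, 194 and 108 CPM in treated mice 1 to 4. Treated mice 2 and 3 lay above every control. Its 1.41-fold difference (log2 fold change 0.49, standard error 0.22, edgeR unadjusted p = 0.0485, adjusted p = 0.657) no longer passed an unadjusted p of 0.05 without control mouse 1 (0.48), control mouse 4 (0.37), treated mouse 2 (0.51) or treated mouse 3 (0.28; log2 fold changes). Ier2 (ENSMUSG00000053560, chromosome 8, 84661331 to 84662852), a nuclear protein of the early growth response, was at 49.0, 82.9, 91.3 and 96.1 CPM in control and at 47.9, 98.8, 119 and 69.8 CPM in treated mice 1 to 4. Treated mice 2 and 3 lay above every control and treated mouse 1 below every control, and the log2 fold change of 0.073 (95% interval -0.57 to 0.71, edgeR unadjusted p = 0.805) turned to -0.10 without control mouse 1, -0.0067 without treated mouse 2 and -0.14 without treated mouse 3.

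**Figure D2:**
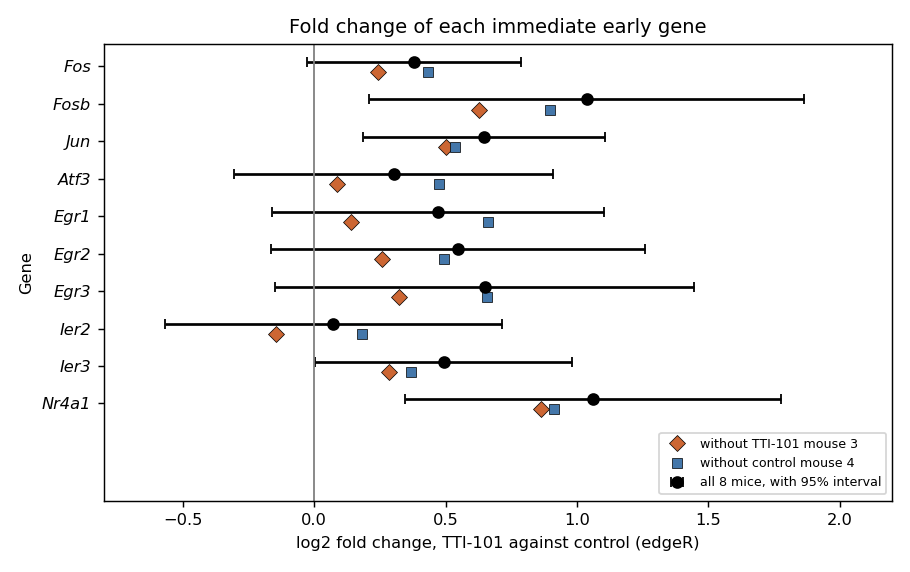
The log2 fold change of each gene, TTI-101-treated against control, from edgeR. Circles with bars are all 8 mice with the 95% interval, diamonds leave out TTI-101-treated mouse 3 and squares leave out control mouse 4. The intervals of Nr4a1, Fosb, Jun and Ier3 lie above 0, and every diamond lies to the left of its circle, that of Ier2 below 0.

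Mice of the same group also differed from each other over these genes. Treated mouse 3 had the highest value of the 8 mice for 10 of the 10 genes, and it was the highest for 17.4% of all genes tested. The mean log2 CPM over the 10 genes was 4.79, 5.03, 5.30 and 4.95 in control mice 1 to 4 and 5.23, 5.22, 6.17 and 5.57 in treated mice 1 to 4. Treated mice 1 and 2 thus lay below control mouse 3, and treated mice 3 and 4 above every control. The 10 genes summed to 637 ± 88.3 CPM in the controls and 945 ± 251 CPM in the treated mice (SD, n = 4 each), and treated mouse 3 alone had 1307 CPM. Control mouse 4 was the lowest mouse for 4 genes, among them Jun, Fosb and Nr4a1, but the highest control for Atf3, Egr1 and Ier2. It was the lowest mouse for 4918 of all 17138 genes tested. Treated mouse 3 was ordinary in depth, at 17982612 counts, and had the lowest mitochondrial share, 2.01%. The mean log2 fold change over the 10 genes was 0.57 with all mice, 0.32 without treated mouse 3, 0.56 without control mouse 4 and 0.30 without both.

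**Figure D3:**
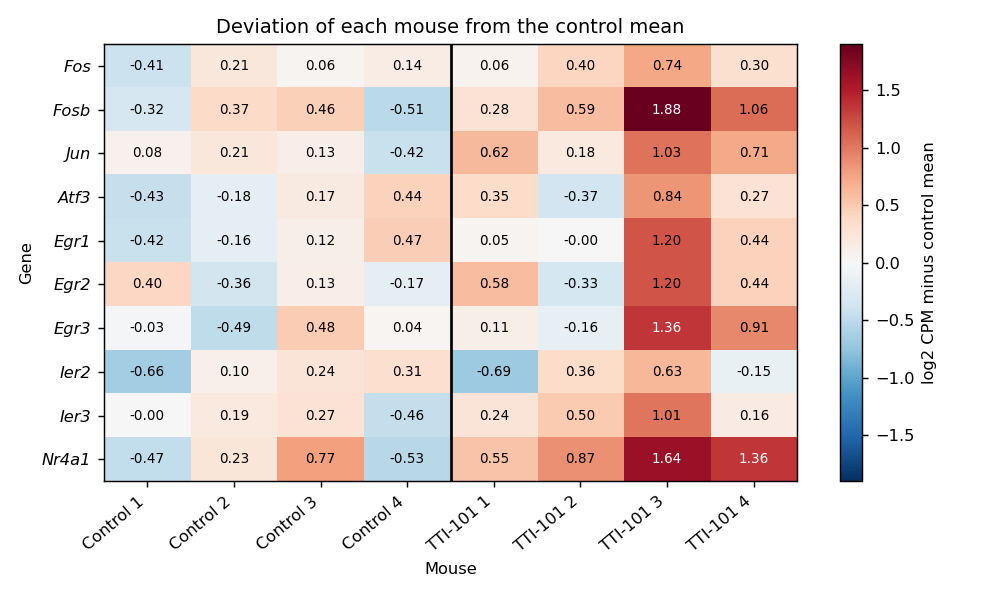
Log2 CPM of each gene in each mouse minus the mean of the 4 control mice, with the number in each cell and color from blue (below the control mean) to red (above). The column of TTI-101-treated mouse 3 runs from 0.63 for Ier2 to 1.88 for Fosb, while the controls run from -0.66 to 0.77.

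Across the 8 mice most of the genes varied together. Of the 45 pairs, 43 had a Pearson r above 0 in log2 CPM, with a median of 0.61, and with group means removed the median was 0.55. All pairs share the same libraries and the same scaling, and the first principal component of all genes tested held 45.2% of the variance. No such median was taken over pairs of other genes, so whether these genes vary together more than others was not tested. After Benjamini-Hochberg adjustment over the 45 pairs, 2 passed 0.05 in exact permutation tests over the 40320 pairings of the mice. Fosb and Nr4a1 gave r = 0.95 (permutation p = 0.000198, adjusted p = 0.00893) and rho = 0.98 (permutation p = 0.000397, adjusted p = 0.0179). For this pair r was 0.96 without the 2 mice farthest from the median of Fosb, 0.91 with group means removed and 0.97 without treated mouse 3. Atf3 and Egr1 gave r = 0.90 (permutation p = 0.00186, adjusted p = 0.0419) and rho = 0.90 (permutation p = 0.00456, adjusted p = 0.103), and r fell to 0.72 without the 2 mice farthest from the median of Atf3. Over all pairs the relation rested largely on treated mouse 3, since without it the median r was 0.25 and 36 pairs were above 0. Without that mouse 0 pairs passed adjustment. That count says little by itself, as it was also 0 without control mouse 1, where the median r was 0.62. Without control mouse 4 the number was 7.

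**Figure D4:**
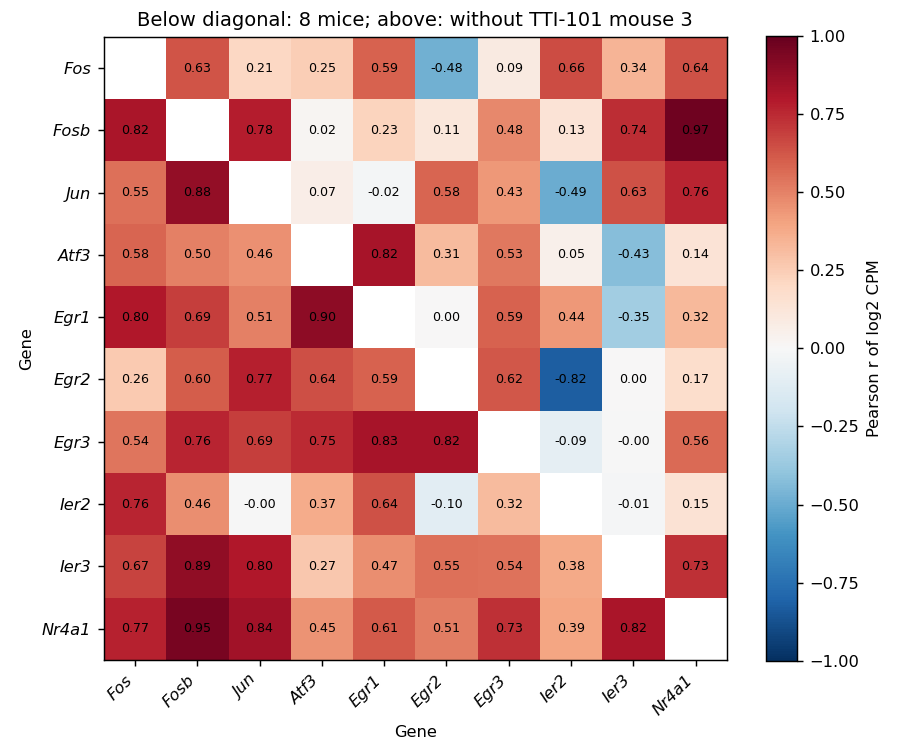
Pearson r between the log2 CPM of each pair of genes, below the diagonal over 8 mice and above it over the 7 mice without TTI-101-treated mouse 3. Color runs from blue (-1) to red (1). Below the diagonal nearly all cells are red. Above it many cells fade or turn blue, Egr2 with Ier2 being the lowest at -0.82, and Fosb with Nr4a1 stays at 0.97.

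Other genes of the same programs were counted in the same comparison, and none of them passed an adjusted p of 0.05 in edgeR. Of 10 AP-1 partners tested, 0 passed an unadjusted p of 0.05 and the median log2 fold change was 0.047. The count was 1 with DESeq2 (5.32% of all genes) and 0 with limma-voom (6.38%). It was 1 without control mouse 3 (4.74%), treated mouse 1 (4.08%) or treated mouse 2 (14.2%), and 0 without any other single mouse. Junb and Jund, the most abundant per length, encode JUN paralogs that can oppose it, and had log2 fold changes of 0.14 (95% interval -0.54 to 0.82) and -0.16 (95% interval -0.76 to 0.43). Batf stood nearest to the threshold in this list, at 0.57 (edgeR unadjusted p = 0.0512), and was chosen for mention after its value was seen. Of the 4 EGR and NR4A relatives tested (Egr4 had too few counts), 0 passed and the median was -0.16. Here too the count was 1 with DESeq2 and 0 with limma-voom. It was 1 without control mouse 1 (13.7%), control mouse 2 (6.51%) or treated mouse 2 (14.2%), and 0 without any other single mouse. Nab2 and Nab1 encode corepressors of the EGR factors, and had log2 fold changes of -0.57 (95% interval -1.16 to 0.014) and -0.13 (95% interval -0.58 to 0.32). Of 31 other immediate early genes, 23 had a log2 fold change above 0, against 50.6% of all genes tested, and the median was 0.16. Of the 31, 1 passed an unadjusted p of 0.05, against 6.61% of all genes in either direction.

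That gene was Nfkbiz, which encodes IκBζ, a nuclear protein of the IκB family. Nfkbiz was at 28.6, 29.2, 29.3 and 25.2 CPM in control and at 30.6, 37.4, 37.5 and 38.3 CPM in treated mice 1 to 4. Every treated mouse lay above every control, as was so for 1.53% of all genes. The log2 fold change was 0.35 (standard error 0.14, edgeR unadjusted p = 0.0254, adjusted p = 0.657; exact permutation p = 0.0286, the smallest possible). The count in this list was 0 without treated mouse 4 (4.34% of all genes passed in the same fit), 4 without treated mouse 2 (14.2%), 3 without control mouse 1 (13.7%) and 2 without control mouse 3 (4.74%). Treated mouse 3 was the highest mouse for 7 of these 31 genes, against 17.4% of all genes tested.

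Of 10 MAPK phosphatases and Sprouty genes, whose products turn ERK signaling back down, 2 were higher at an unadjusted p under 0.05 and 0 lower. Dusp1 encodes a phosphatase that is itself an immediate early gene product, and was at 252, 264, 269 and 155 CPM in control and at 457, 226, 406 and 454 CPM in treated mice 1 to 4 (log2 fold change 0.71, standard error 0.25, edgeR unadjusted p = 0.0178, adjusted p = 0.657). Dusp2, a nuclear ERK phosphatase of immune cells, was at 6.08 to 9.06 CPM in control and 5.58 to 16.2 CPM in treated lungs (log2 fold change 0.72, edgeR unadjusted p = 0.0455, adjusted p = 0.657). Treated mouse 2 lay within the control range for Dusp1 and below every control for Dusp2, and the other 3 treated mice lay above every control for both genes. The count for this list was 0 without treated mouse 1, where 4.08% of all genes passed, against 6.61% with all mice. It was 1 without control mouse 2 (6.51%), 3 (4.74%) or 4 (3.03%), or without treated mouse 3 (2.42%) or 4 (4.34%). It was 3 without control mouse 1 (13.7%) or treated mouse 2 (14.2%). Over the whole list, 6 genes had log2 fold changes above 0 and 4 below, between -0.45 and 0.72, where 50.6% of all genes tested were above 0.

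Of 21 upstream factors and kinases, among them serum response factor, its ternary complex partners, CREB and the ERK, JNK and p38 kinases, 0 passed an unadjusted p of 0.05, and the median log2 fold change was 0.067. Without control mouse 1 the count was 2, where 13.7% of all genes passed, and without treated mouse 2 it was also 2, where 14.2% passed. Mapk3, which encodes ERK1, had a log2 fold change of 0.067 (95% interval -0.28 to 0.42), and Stat3, the gene of the drug target, of -0.077 (95% interval -0.40 to 0.25). All 4 treated mice lay below all 4 controls for 1 gene of the list, Crem, which encodes a CREB relative (log2 fold change -0.27, edgeR unadjusted p = 0.121), against 1.43% of all genes. These are mRNA levels and carry no information on phosphorylation.

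Heat shock genes respond to tissue stress, as immediate early genes do. Of the 10 tested, 9 had log2 fold changes below 0, as had 8469 of all 17138 genes tested. Of the 10, 4 were lower at an unadjusted p under 0.05 and 0 higher, against 3.58% of all genes lower, and the median log2 fold change was -0.54. Hsph1, a large chaperone, was at 55.1, 153, 202 and 119.8 CPM in control and at 68.9, 73.0, 43.5 and 80.3 CPM in treated mice 1 to 4 (log2 fold change -0.996, standard error 0.34, edgeR unadjusted p = 0.0148, adjusted p = 0.657). Control mouse 1 lay within the treated range, and the other 3 controls lay above it. The others were Hsp90aa1, the inducible HSP90 (log2 fold change -0.62), Hspe1 (-0.74) and Hspd1 (-0.45), the last pair being the mitochondrial chaperonins. Without control mouse 3, 0 of the 10 passed (4.74% of all genes), and without both control mouse 4 and treated mouse 3 the count was also 0 (1.48%). Treated mouse 3, the highest mouse for all 10 immediate early genes, had the lowest summed heat shock level, 1730 CPM, against 1752 to 3305 CPM in the other mice. Hspa8 alone gave 816 CPM of that sum. Treated mouse 3 was the lowest mouse for 4 of the 10 heat shock genes and the highest for 1, Bag3, at 109 CPM. Of all 17138 genes tested, it was the lowest for 2390 and the highest for 2980.

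**Figure D5:**
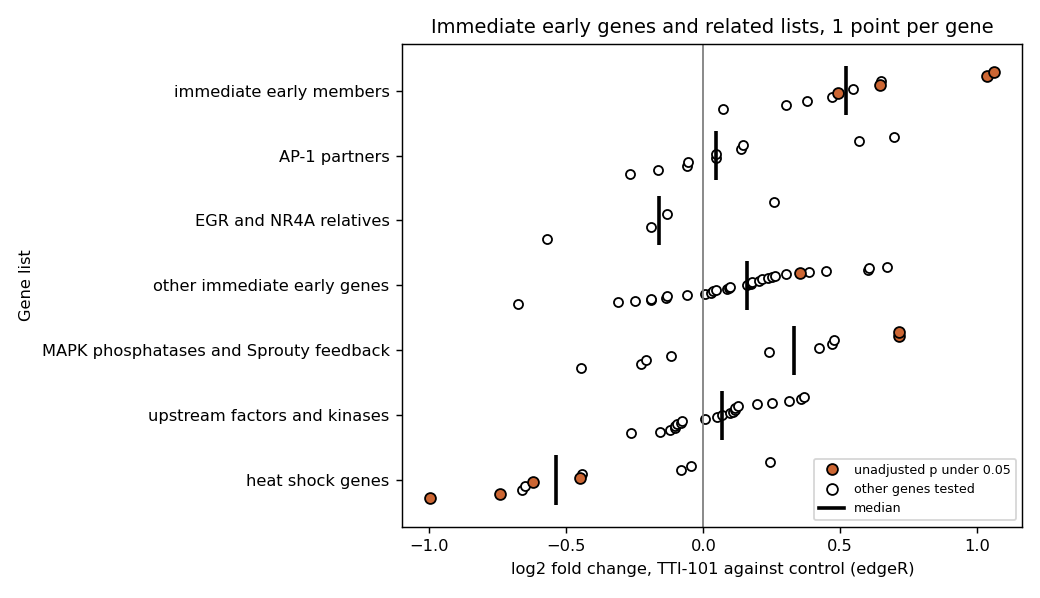
The log2 fold change of every tested gene, 1 point per gene, by list, with the list's median as a vertical line and genes at an unadjusted p under 0.05 filled. The 10 immediate early genes all lie above 0 with a median of 0.52, the lists of AP-1 partners and upstream factors center near 0, and the heat shock genes have a median of -0.54.

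Markers of several cell types differed in level between the groups, with 0 past an adjusted p of 0.05 in edgeR. The 3 endothelial markers (Pecam1, Cdh5 and Cldn5) had log2 fold changes above 0, with 0 past an unadjusted p of 0.05, and their sum ranged from 547 to 1689 CPM in control and from 1394 to 2612 CPM in treated lungs. Treated mouse 3 had the highest endothelial sum and control mouse 4 the lowest. The same was so for the summed markers of alveolar type 1 cells, fibroblasts, B cells, adipocytes and mesothelium, but not for the other cell types. All 4 B cell markers (57.1 to 192 CPM in control, 180.4 to 377 CPM in treated lungs, summed), 3 of 3 red cell markers (51.5 to 221 CPM, and 183 to 1421 CPM) and 3 of 3 adipocyte markers (3.97 to 23.6 CPM, and 17.9 to 60.5 CPM) were higher at an unadjusted p under 0.05. For cardiomyocytes, 0 of 4 passed (5.76 to 498 CPM, and 323 to 1023 CPM), and Nppa had 0 counts in control mouse 4. Of 3 club cell markers, 1 was lower, Scgb1a1, and the sum ranged from 14655 to 36957 CPM in control and from 12380 to 23013 CPM in treated lungs. Of 3 ciliated cell markers 1 was lower (Dnah5), and of 3 platelet markers 1 was higher (Itga2b) and 1 lower (Pf4). No marker of alveolar type 1 or type 2 cells, fibroblasts, smooth muscle, neutrophils, alveolar macrophages, T cells or mesothelium passed an unadjusted p of 0.05. Of all genes tested, 3.02% were higher and 3.58% lower at that threshold. The part of these cell types in the differences of the immediate early genes was not tested.

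Xist, the RNA that coats the inactive X chromosome of female cells, divided the mice into sets of 4. It was at 400.2 to 450 CPM in mice 1 and 2 of each group and at 0.167 to 2.11 CPM in mice 3 and 4 of each group, while the labels give no sex. Among the mice with high Xist, 10 of the 10 immediate early genes had a higher mean log2 CPM in treated than in control lungs, by 0.32 on average, and among those with low Xist 9 of the 10 did, by 0.74 on average, with 2 mice per group in each. Ier2 was the exception, at -0.037 among the mice with low Xist. For Nr4a1 the differences were 0.83 and 1.37, and for Fosb 0.41 and 1.496. Treated mice 3 and 4, the highest pair for the mean of the genes, are both among the mice with low Xist. Control mouse 3, the highest control for that mean, and control mouse 4 are too. The 2 sets were not tested against each other. The share of all genes with a higher mean was not counted within either set. As most of the 10 genes varied together, their directions are not 10 separate results.

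By Pearson r with the mean log2 CPM of the 10 genes over the 8 mice, the most similar of 12649 other genes with a mean of at least 5 CPM were Pllp (r = 0.96), Cd151 (0.94), Fam207a (0.93), Slc19a1 (0.93), Tnks1bp1 (0.93), Pxn (0.93), Bysl (0.93), Riox1 (0.92), Gamt (0.92) and Apbb1 (0.92), given as a description. Pllp, which encodes the membrane protein plasmolipin, was at 4.402, 6.70, 6.88 and 4.61 CPM in control and at 7.76, 6.30, 13.6 and 8.94 CPM in treated mice 1 to 4. The 8 mice thus stood in much the same order for Pllp as for the mean it was chosen to resemble.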

How the data were processed

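RNA from lungs of CC-LR mice (4 control, 4 TTI-101-treated) was sequenced by a provider with its own pipeline, from poly(A)-selected, stranded, paired-end libraries (TruSeq Stranded mRNA). The authors deposited whole-number read counts per Ensembl gene without normalization. The submitters' processing notes name STAR, DESeq2 and mm10. The counting tool, its strand setting and all versions are not given in the sources used here. Coordinates of all 10 genes equal those of GENCODE M21.

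In R 4.3.3, edgeR 4.0.16 kept 17138 genes (filterByExpr, minimum count 10), scaled libraries by TMM and compared the groups by robust quasi-likelihood F-tests with Benjamini-Hochberg adjustment over all genes tested. Log2 CPM used a prior count of 2. Fold change intervals use the test's moderated degrees of freedom. Alternatives were DESeq2 1.42.0, limma-voom (limma 3.58.1), other scalings and filters, a replicate block, Xist as a covariate and each mouse left out. The fits were tested on simulated data. With totals between 16075855 and 26873509 counts, relative counting error is largest for Egr2, Egr3 and Fosb, the genes with the fewest counts. Of each related list, genes past an unadjusted p of 0.05 are named, otherwise the 2 with the highest CPM per kilobase. Batf, Crem, Hspa8 and Bag3 are named outside this rule, for their values. The members and lists were chosen with earlier results of these data known.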

Additional observations from a re-analysis of the deposited data

Results flagged for a closer look

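In 68 groups of 4 mice tested by Dixon's rule for outlying values (gap over range, critical value at the 95% level), 5 values stood apart from the other 3 mice of their group, where chance gives about 3.4. No immediate early gene was among them. For Nfkbiz, TTI-101-treated mouse 1 was the lowest treated mouse at 30.6 CPM (ratio 0.89). For Dusp1, control mouse 4 was the lowest control at 155 CPM (0.844). Control mouse 1 had the largest total, 26873509 counts (0.83). Control mouse 4 had the largest mitochondrial share, 5.56% (0.867). TTI-101-treated mouse 2 had the largest summed level of cardiomyocyte markers, 1023 CPM (0.874). The causes were not tested.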

How the results depend on the processing

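None of the 10 genes passed an adjusted p of 0.05 under any of the 17 alternatives, and 9 of the 10 kept a log2 fold change above 0 in all of them. The number at an unadjusted p under 0.05, 4 with all mice, was 4 with DESeq2 (5.32% of all genes) and 3 with limma-voom (6.38%). With each mouse left out it lay between 2, without treated mouse 3 (2.42%), and 5, without treated mouse 1 (4.08%) or 2 (14.2%), and was 0 (1.48%) with both control mouse 4 and TTI-101-treated mouse 3 left out, an alternative chosen after seeing the data. Their mean log2 fold change ranged from 0.32 to 0.67 with each mouse left out. Ier2 ranged from -0.14 to 0.27 with each mouse left out and was -0.044 with both left out. The number of correlated pairs past an adjusted p of 0.05, 2 with TMM, was 1 with library totals and ranged from 0 to 7 with each mouse left out. The causes were not tested.

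Same-numbered mice correlated at 0.39, 0.082, 0.16 and 0.071 in their deviations from the group means, so the numbers were not taken to pair the mice. With a replicate block 6 of the 10 genes passed an unadjusted p of 0.05, Fos (log2 fold change 0.38) and Egr3 (0.57) in addition to the others, where 7.57% of all genes passed. With Xist as a covariate 3 passed, and 4.94% of all genes. Counts were lowest for Egr2, Egr3 and Fosb, down to 59 per library, and how far depth limits these genes was not separated from the spread between mice.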
